A study of Rattus norvegicus with 6 samples.

Results

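Endothelial identity and vessel wall genes were followed in the metrial gland of the pregnant rat, the triangle of mesometrial uterine tissue that the maternal arteries cross on their way to the placenta. The 34 genes were a list of pan-endothelial, capillary, arterial and lymphatic genes, which leaves out the VEGF, angiopoietin, Notch and vasoactive families. The list was chosen with earlier results of these data known. Of the 34 genes, 30 had a probe set with that gene as its only symbol, out of 14217 such genes on the array. Each was read from its brightest probe set. Cdh5, Robo4, Cd34 and Tal2 were not analysed here. The filter on low means, which left out the 40% of probe sets with the lowest mean over all arrays, kept 28 of the 30 and left out the lymphatic regulator Prox1 and the tip cell product Esm1.

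The ambient group was 3 arrays of tissue from pregnant rats kept at 21% oxygen. The hypoxia group was 3 arrays of tissue from pregnant rats kept at 10.5% oxygen. Both exposures covered gestation days 6.5 to 13.5, and the tissue was collected after them. The labels give no strain, no age beyond the day of gestation and no count of animals per array, so the spread against which each p-value is set is that of the arrays in hand and may be technical. Values are log2 expression, each difference is hypoxia less ambient, given with its standard error (SE), and a gene is said to have risen or fallen where its adjusted p in limma's test over 18625 probe sets was under 0.05 (n = 3 arrays per group).

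Endothelial cells line every vessel, hold together through adherens and tight junction proteins, and keep their identity through ETS and SOX family transcription factors. Capillaries, arteries and lymphatics add their own genes, for fenestral diaphragms and lipid uptake, for flow sensing and for fluid drainage. In the rodent metrial gland the maternal arteries are remodelled around mid-gestation, when natural killer cells surround them and trophoblast cells enter their walls.

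The tissue was checked against its labels. Of the 9 endothelial markers, 7 were measured, and each stood above the highest bacterial control probe set (5.003) on all 6 arrays. The natural killer cell genes that mark the metrial gland varied in level. Gzmb (granzyme B) at 14.47 and Prf1 (perforin) at 13.64 in ambient were bright. Klrb1a at 7.45 and Ncr1 at 6.81 in ambient were much lower, and Gzma lay below the bacterial controls on every array. Array medians lay between 6.44 and 6.47. Correlations between arrays lay between 0.989 and 0.993 within groups and between 0.974 and 0.983 between them. The 3' minus 5' signal of beta-actin, a sign of RNA quality, was 0.41 to 0.54 in ambient and 0.58 to 0.77 in hypoxia, so it moved with the groups, and its part in the differences below was not tested.

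The promoter sequences of the genes are shown first, because ETS factors are textbook regulators of endothelial genes and the members that rose can be read against that motif. RefSeq (assembly GRCr8) gave the 250 bases before a start site for 22 of the 34 genes. The ETS letters AGGAAG, on either strand, were found in 12 of the 22 windows (54.5%), against 29.4% of 27457 windows in all. The second ETS form searched, CCGGAAG, was in 0 of the 22 and 7.74% of all. The windows of Mmrn2, Mmrn1, Eng, Nos3 and Egfl7, which rose, and of the capillary genes Plvap and Emcn, which did not pass, hold AGGAAG in one orientation or the other. Adgrf5, with the smallest p of the group, holds neither form. Capitals mark AGGAAG or its reverse complement CTTCCT. Each line runs 5′ to 3′ in the gene's direction and ends just before the start site.
Mmrn2: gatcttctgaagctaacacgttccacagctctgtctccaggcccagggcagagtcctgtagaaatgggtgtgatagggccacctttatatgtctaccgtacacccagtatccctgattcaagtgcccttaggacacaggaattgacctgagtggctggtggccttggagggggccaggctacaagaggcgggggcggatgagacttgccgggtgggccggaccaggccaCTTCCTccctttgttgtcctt
Mmrn1: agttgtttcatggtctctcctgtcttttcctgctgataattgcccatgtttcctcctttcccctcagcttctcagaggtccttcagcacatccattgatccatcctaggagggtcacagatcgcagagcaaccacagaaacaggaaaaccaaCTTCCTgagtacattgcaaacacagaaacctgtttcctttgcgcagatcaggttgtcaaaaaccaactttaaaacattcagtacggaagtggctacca
Eng: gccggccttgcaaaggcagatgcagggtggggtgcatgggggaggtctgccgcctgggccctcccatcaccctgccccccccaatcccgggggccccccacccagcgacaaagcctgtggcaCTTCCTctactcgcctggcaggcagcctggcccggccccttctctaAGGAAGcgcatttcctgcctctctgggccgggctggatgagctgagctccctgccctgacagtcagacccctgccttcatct
Nos3: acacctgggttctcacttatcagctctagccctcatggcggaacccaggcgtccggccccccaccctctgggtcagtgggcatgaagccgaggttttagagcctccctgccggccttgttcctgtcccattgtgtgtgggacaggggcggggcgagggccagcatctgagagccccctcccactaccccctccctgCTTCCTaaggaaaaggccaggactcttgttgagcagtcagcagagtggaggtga
Egfl7: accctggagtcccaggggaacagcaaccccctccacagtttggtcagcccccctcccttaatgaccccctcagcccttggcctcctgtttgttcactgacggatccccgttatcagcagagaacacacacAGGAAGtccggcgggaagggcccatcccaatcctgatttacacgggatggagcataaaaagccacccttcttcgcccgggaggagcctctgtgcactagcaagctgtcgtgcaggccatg
Plvap: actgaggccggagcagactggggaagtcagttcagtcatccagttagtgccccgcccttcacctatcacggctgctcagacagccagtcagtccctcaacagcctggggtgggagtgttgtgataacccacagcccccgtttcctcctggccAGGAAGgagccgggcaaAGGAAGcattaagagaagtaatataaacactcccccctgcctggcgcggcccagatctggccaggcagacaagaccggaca
Emcn: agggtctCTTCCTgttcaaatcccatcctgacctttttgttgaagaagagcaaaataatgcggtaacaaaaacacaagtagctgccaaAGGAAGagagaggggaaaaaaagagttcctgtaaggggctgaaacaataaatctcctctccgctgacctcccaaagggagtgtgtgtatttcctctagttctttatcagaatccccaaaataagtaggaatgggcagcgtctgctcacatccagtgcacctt
Adgrf5: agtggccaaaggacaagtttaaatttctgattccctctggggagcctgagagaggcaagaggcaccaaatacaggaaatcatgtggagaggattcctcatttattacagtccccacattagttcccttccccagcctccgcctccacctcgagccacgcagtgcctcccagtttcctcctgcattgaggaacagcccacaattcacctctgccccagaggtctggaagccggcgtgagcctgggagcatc
The windows lie at chr16:9711955-9712204 on the plus strand for Mmrn2, chr4:91233166-91233415 on the plus strand for Mmrn1, chr3:36332029-36332278 on the plus strand for Eng and chr4:11706582-11706831 on the minus strand for Nos3. The others lie at chr3:29805381-29805630 on the plus strand for Egfl7, chr16:18231280-18231529 on the minus strand for Plvap, chr2:228564289-228564538 on the plus strand for Emcn and chr9:25121238-25121487 on the minus strand for Adgrf5.

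An ETS form was present in 5 of the 10 windows of genes that rose and in 5 of the 8 of genes that were kept and did not pass. The hypoxia response element core, ACGTG or GCGTG on either strand, was in 9 of the 22 windows (40.9%) and in 37.9% of all. It was found in 4 of the 10 windows of genes that rose, among them those of Mmrn2 and Adgrf5, and in 2 of the 8 of genes that did not pass. SOX letters, AACAAT or ACAATG, which can overlap each other, were in 5 windows (22.7%; 17.1% of all), the KLF letters CCACCC in 9 (40.9%; 26.6%) and the TATA box TATAAA in 4 (18.2%; 13.1%). The members' windows had a median of 57.8% G and C, against 52.0% over all windows. These are matches of letters in a short window, without a measurement of binding.

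In hypoxia 15 of the 28 genes kept rose and 0 fell, in a list chosen with earlier results of these data known. Over all probe sets, 4.02% were called higher and 1.97% lower, so 67.1% of all calls were higher, a share that became 55.4% with quantile normalization, under which 14 members rose. The median difference of the 28 was 0.48, that of all probe sets kept 0.0033, and 24 of the 28 differences were positive. The 3 hypoxia arrays lay wholly above the 3 ambient arrays for 18 of the 28, and wholly below for 0, while 15.8% of all probe sets were separated upward and 14.1% downward. The strongest members were the genes of the receptor Adgrf5, the secreted proteins Vwf, Mmrn2 and Mmrn1, the sialomucin Podxl and the lipase anchor Gpihbp1. Their rises ran from 1.68-fold to 2.29-fold. Pecam1, the most widely used endothelial marker, was higher by 0.24 and did not pass. At an unadjusted p under 0.05, limma had 20 of the 28 higher and 0 lower, against 13.1% higher and 10.6% lower over all probe sets. The ambient means of Nos3 (5.63) and Erg (5.74) lay at or under the filter's limit of 5.74, so both were kept through their hypoxia arrays. In RNA from whole tissue, fewer or more cells of a type and less or more RNA per cell cannot be told apart.

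**Figure D1:**
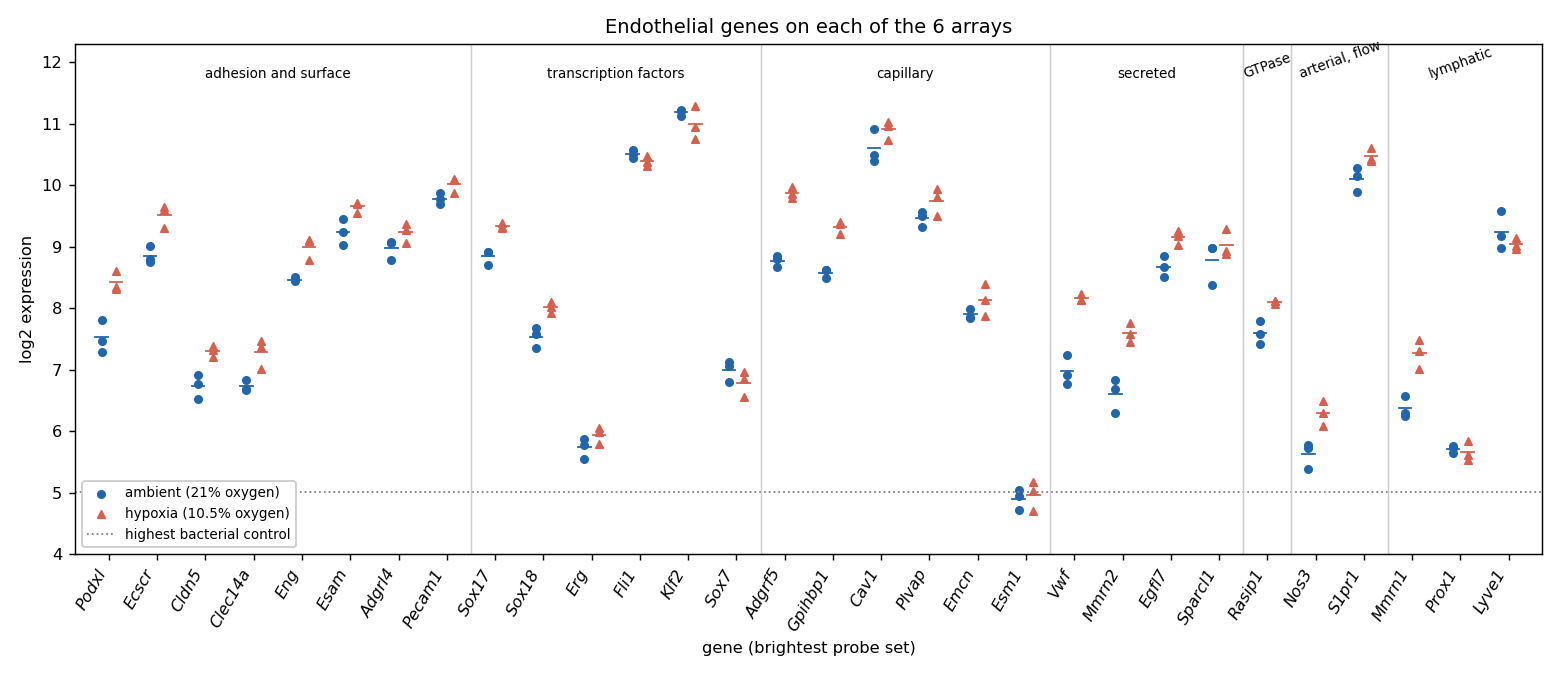
Log2 expression (vertical axis) of the 30 measured endothelial genes (horizontal axis, by role) on each array, with ambient as blue circles, hypoxia as red triangles and short lines for group means. The dotted line is the highest bacterial control, 5.003, and Esm1 lies beside it, while Vwf, Adgrf5 and Mmrn2 show the widest gaps between groups.

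Junction and surface genes shared by most endothelium rose in 5 of the 8 kept (Podxl, Ecscr, Cldn5, Clec14a and Eng), and the other 3 were higher without passing. Podxl, a sialomucin that keeps the vessel lumen open, stood at 7.81, 7.29 and 7.47 on the ambient arrays and at 8.61, 8.35 and 8.32 on the hypoxia arrays. The groups did not overlap, and it rose by 0.90 (SE 0.14, adjusted p = 0.0154), or 1.86-fold. Its other 2 probe sets, both left out for low means, were higher by 0.41 and 0.40 (limma adjusted p without the filter 0.124 and 0.0917).

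Ecscr, an endothelial chemotaxis receptor, read 9.01, 8.80 and 8.76 in ambient and 9.60, 9.65 and 9.31 in hypoxia, a rise of 0.66 (SE 0.11, adjusted p = 0.0177). Cldn5 forms the tight junctions of endothelium. It read 6.92, 6.76 and 6.53 in ambient and 7.31, 7.39 and 7.21 in hypoxia, a rise of 0.57 (SE 0.11, adjusted p = 0.0330). Eng, the TGF-beta co-receptor endoglin, was nearly even among the ambient arrays at 8.51, 8.45 and 8.44, and rose to 9.09, 9.11 and 8.79, by 0.53 (SE 0.10, adjusted p = 0.0239). Clec14a, a C-type lectin of the vessel surface that binds multimerin-2, went from 6.83, 6.68 and 6.67 to 7.46, 7.36 and 7.01, and rose by 0.55 (SE 0.13, adjusted p = 0.0444). In each of these genes the hypoxia arrays lay above every ambient array, with hypoxia replicate 3 the lowest of its group.

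Among the surface genes that did not pass, Esam, an adhesion molecule of endothelial tight junctions, was the nearest, at 9.45, 9.24 and 9.03 against 9.72, 9.56 and 9.70 (difference 0.42, SE 0.11, adjusted p = 0.0625). Its groups did not overlap. Pecam1, the junction molecule CD31, read 9.77, 9.69 and 9.87 in ambient and 10.09, 10.10 and 9.87 in hypoxia, which put it 0.24 higher (95% interval 0.05 to 0.43, adjusted p = 0.131). The adhesion G protein-coupled receptor Adgrl4 differed by 0.26 (0.01 to 0.51, adjusted p = 0.193), and its groups overlapped. Leukocytes and platelets also carry Pecam1, and the leukocyte markers Coro1a and Laptm5 fell by 0.62 and 0.41 on the same arrays; their part in the Pecam1 value was not tested.

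Genes of secreted and vessel wall proteins rose in 3 of 4. Vwf carries clotting factor VIII, tethers platelets and is stored in endothelial granules. It stood at 6.91, 6.76 and 7.24 in ambient and at 8.23, 8.14 and 8.14 in hypoxia, a rise of 1.20 (SE 0.12, adjusted p = 0.00471). Mmrn2, the endothelial matrix multimerin, went from 6.68, 6.30 and 6.84 to 7.59, 7.77 and 7.45, a rise of 0.996 (SE 0.15, adjusted p = 0.0131), or 1.99-fold. In both genes the gap between the groups was wider than the range within either.

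Egfl7, an endothelial secreted protein that guides lumen formation, read 8.85, 8.51 and 8.67 in ambient and 9.18, 9.03 and 9.25 in hypoxia. It rose by 0.48 (SE 0.10, adjusted p = 0.0389), and its second probe set rose by 0.70 (SE 0.11, adjusted p = 0.0136). Sparcl1, a matricellular protein of vessels and their mural cells, overlapped between groups and was higher by 0.25 (95% interval -0.15 to 0.66, adjusted p = 0.428).

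Vwf and Mmrn1 are also made by megakaryocytes and carried in platelets. Of 10 platelet markers, 7 were on the array and 5 kept; limma called 0 of them, with 2 at an unadjusted p under 0.05. Pf4, platelet factor 4, was higher by 0.41 (adjusted p = 0.0530) and Itgb3, which endothelium shares, by 0.43 (adjusted p = 0.0791), while Itga2b, Gp9 and Treml1 differed by -0.01, 0.07 and -0.04. The log2 summed signal of the list was 9.63 to 9.89 in ambient and 10.02 to 10.25 in hypoxia (exact permutation p = 0.1). Of the 2 left out for low means, Ppbp, another platelet chemokine, was higher by 0.26 with no overlap between groups (limma adjusted p without the filter 0.155) and lay above the bacterial controls on 4 of 6 arrays, and Gp5 lay below them on every array. The part of platelets in the Vwf and Mmrn1 values was not tested.

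Transcription factor genes rose in 2 of the 6 kept, and the SOXF family held differences of both signs. Sox17 and Klf2 are counted here and again among the arterial and flow genes. Sox17, the SOXF factor of arterial endothelium, was even within groups, at 8.91, 8.70 and 8.91 against 9.31, 9.33 and 9.39, and rose by 0.50 (SE 0.08, adjusted p = 0.0152). Sox18, a SOXF factor of vascular and lymphatic development, read 7.68, 7.35 and 7.58 in ambient and 8.10, 8.02 and 7.92 in hypoxia, a rise of 0.48 (SE 0.10, adjusted p = 0.0404). Sox7, which completes the SOXF family, read 7.12, 6.80 and 7.06 against 6.84, 6.96 and 6.56, lower by 0.20 without passing (95% interval -0.51 to 0.10, adjusted p = 0.394). The intervals of Sox17 (0.32 to 0.68) and Sox7 did not overlap, and their difference was not tested. The second kept probe set of Sox17 was higher by 0.34 (adjusted p = 0.252), and another, left out for a low mean, differed by -0.0024.

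The ETS factors did not pass at their brightest probe sets. Fli1, which leukocytes express as well, read 10.44, 10.51 and 10.57 against 10.32, 10.37 and 10.47, a difference of -0.12 (95% interval -0.27 to 0.03, adjusted p = 0.322). All 4 of its probe sets were lower, by 0.12 to 0.22 in size, and did not pass. Those with differences of -0.20 and -0.22 had no overlap between groups. Erg, an ETS factor more restricted to endothelium, was higher by 0.21 (-0.06 to 0.47, adjusted p = 0.323). Its second probe set, left out for a low mean, read 5.13, 5.06 and 5.05 against 5.49, 5.57 and 5.49, higher by 0.43 (limma adjusted p without the filter 0.0271). All 3 leukocyte markers were kept and were lower, and 2 of them fell. The log2 summed signal of that list was 13.32 to 13.65 in ambient and 13.01 to 13.20 in hypoxia (exact permutation p = 0.1). Its part in the Fli1 value was not tested. Klf2, the flow-induced factor, read 11.23, 11.20 and 11.14 in ambient and a wider 10.94, 11.29 and 10.75 in hypoxia (difference -0.20, -0.48 to 0.09, adjusted p = 0.381). All 4 kept probe sets of Klf2 were lower without passing. Those with differences of -0.27 and -0.15 had no overlap between groups.

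Capillary genes split into 2 that rose and 3 that did not pass. Adgrf5, an adhesion receptor of capillary endothelium, had the smallest p of the 28. It read 8.85, 8.66 and 8.80 in ambient and 9.98, 9.80 and 9.85 in hypoxia, a rise of 1.11 (SE 0.08, adjusted p = 0.00166), or 2.16-fold. Its other 2 probe sets rose by 0.79 (adjusted p = 0.00467) and 0.86 (adjusted p = 0.0117), so all 3 were called. Gpihbp1 anchors lipoprotein lipase on the capillary surface. It read 8.62, 8.62 and 8.50 in ambient and 9.40, 9.37 and 9.20 in hypoxia, a rise of 0.74 (SE 0.08, adjusted p = 0.00517).

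Plvap, the protein of fenestral and caveolar diaphragms, overlapped between groups, at 9.57, 9.32 and 9.49 against 9.81, 9.94 and 9.50 (difference 0.29, 95% interval 0.01 to 0.57, adjusted p = 0.200). Emcn, a sialomucin of capillaries and veins, differed by 0.24 (-0.05 to 0.54, adjusted p = 0.298). Cav1, the caveolar coat protein that stroma and smooth muscle share, differed by 0.31 (adjusted p = 0.216), and its other 2 probe sets by 0.24 and 0.08. Esm1 lay at background, between 4.71 and 5.18 with 4 of 6 arrays above their own highest bacterial control, so no difference could be read for it at this signal. The intervals of Adgrf5 (0.93 to 1.29) and of Plvap did not overlap, and the difference between them was not tested.

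Arterial and flow genes held 2 rises among 4, Sox17 and Nos3. Nos3, the endothelial nitric oxide synthase, read 5.73, 5.38 and 5.78 in ambient and 6.30, 6.08 and 6.49 in hypoxia, a rise of 0.66 (SE 0.14, adjusted p = 0.0397) at a low signal. Kept through its hypoxia arrays, it had an adjusted p of 0.0416 in limma's fit with no filter. S1pr1, the receptor for sphingosine 1-phosphate that stabilises junctions, read 10.28, 9.90 and 10.16 against 10.61, 10.43 and 10.40. Its groups did not overlap, but the difference of 0.37 (SE 0.11, adjusted p = 0.0824) did not pass. Rasip1, a Ras-interacting protein needed for vessel lumens, was close to even within hypoxia at 8.12, 8.12 and 8.07, above 7.57, 7.43 and 7.80 in ambient, and rose by 0.51 (SE 0.10, adjusted p = 0.0335). The other 2 probe sets of Rasip1, left out for low means, were lower by 0.10 and 0.17 (limma adjusted p without the filter 0.618 and 0.458).

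Of the 3 lymphatic genes 2 were kept, and 1 of them rose. Mmrn1, the multimerin of lymphatic endothelium and platelets, read 6.30, 6.58 and 6.24 in ambient and 7.48, 7.30 and 7.02 in hypoxia, a rise of 0.89 (SE 0.14, adjusted p = 0.0153). Lyve1, the hyaluronan receptor of lymphatic vessels and of some macrophages, read 8.97, 9.59 and 9.17 against 9.01, 9.15 and 8.97, and its groups overlapped (difference -0.20, 95% interval -0.54 to 0.14, adjusted p = 0.453). Its second probe set was lower by 0.31 (adjusted p = 0.297). Prox1, the regulator of lymphatic identity, was left out for its low mean and differed by -0.05 (-0.29 to 0.18; limma adjusted p without the filter 0.829). Of the 8 macrophage markers, all kept, 1 fell, the scavenger receptor Cd163 (-1.05, adjusted p = 0.00340). In all, 7 were lower and 1 higher, with 4 at an unadjusted p under 0.05 in limma. Mrc1 (-0.55) and Csf1r (-0.22) were lower with no overlap between groups and did not pass. The brightest, Cd68, C1qa and C1qc, differed by -0.06, -0.40 and -0.21. The log2 summed signal of that list was 11.72 to 12.07 in ambient and 11.61 to 11.81 in hypoxia (exact permutation p = 0.2), and its part in the Lyve1 value was not tested.

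**Figure D2:**
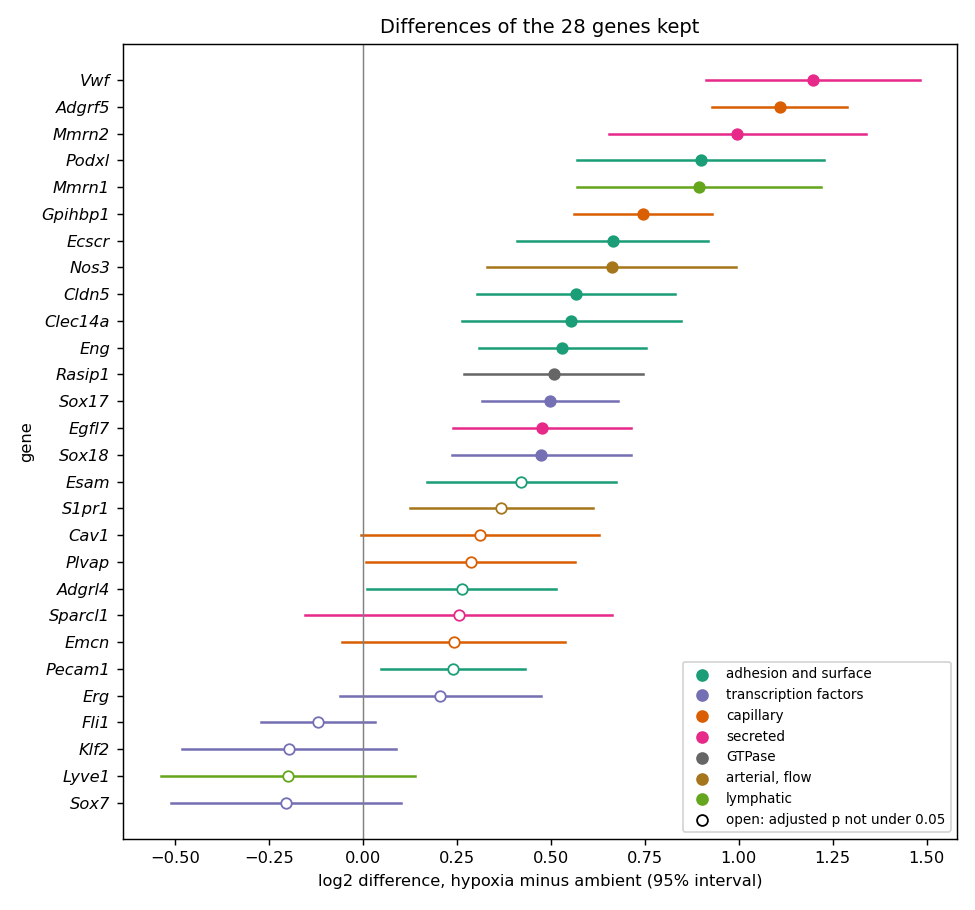
Log2 difference, hypoxia minus ambient (horizontal axis), with its 95% interval for each of the 28 genes kept (vertical axis), coloured by role, filled where the adjusted p was under 0.05. The 15 filled points run from 0.48 for Sox18 to 1.20 for Vwf, and the 4 negative points are Fli1, Klf2, Lyve1 and Sox7, all open.

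How far the calls rested on single arrays varied between members. Vwf, Adgrf5 and Gpihbp1 passed in all 16 alternatives and Mmrn2 in all 15 in which it was tested. With 1 array left out, the count of 15 members became 11, 7 and 6 for ambient replicates 1, 2 and 3 in that order, and 7, 8 and 11 for the hypoxia replicates. The share of all probe sets called shrank too, to 1.43% without ambient replicate 3 from 5.99% with all arrays. No member turned its sign in any of the alternatives.

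Among the members that did not pass, 8 moved by over 1.5 times when 1 array was left out. Without ambient replicate 3, Sparcl1 went from 0.25 to 0.06 and Erg from 0.21 to 0.11. Without ambient replicate 2, Lyve1 went from -0.20 to -0.03 and Adgrl4 from 0.26 to 0.17, and without ambient replicate 1 Lyve1 went to -0.34. Klf2 and Sox7 went from -0.20 to -0.07 and -0.09 without hypoxia replicate 3, and Klf2 to -0.34 without hypoxia replicate 2. Emcn, at 0.24 with all arrays, was at 0.11 without hypoxia replicate 1 and at 0.37 without hypoxia replicate 3. Sparcl1 was at 0.13 without hypoxia replicate 1, and Plvap went from 0.29 to 0.19 without hypoxia replicate 2.

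Mmrn1 and Podxl lost their calls only without ambient replicate 3 (adjusted p = 0.0649 for each; lowest over the alternatives 0.0111 and 0.00523), and Sox17 only when its probe sets were averaged (0.0616; lowest 0.0107). Cldn5 and Ecscr lost theirs without ambient replicate 2 or 3 or hypoxia replicate 1 or 2 (up to 0.0927 and 0.0729). Eng and Clec14a kept theirs among these only without hypoxia replicate 3 (up to 0.0897 and 0.147), Nos3 only without hypoxia replicate 2 (up to 0.103), Egfl7 only without ambient replicate 1 (up to 0.124), and Rasip1 only without ambient replicate 3 (up to 0.0936), while Sox18 lost its call whichever array was left out (up to 0.114). Clec14a and Egfl7 also lost theirs with no variance trend, and Egfl7 with quantile normalization. Esam passed with array weights or without ambient replicate 1 (lowest 0.0365), and S1pr1 with array weights or the replicate block (lowest 0.0403). Ambient replicate 1 read highest of its group for 19 of the 28 genes, and hypoxia replicate 3 lowest of its group for 19.

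**Figure D3:**
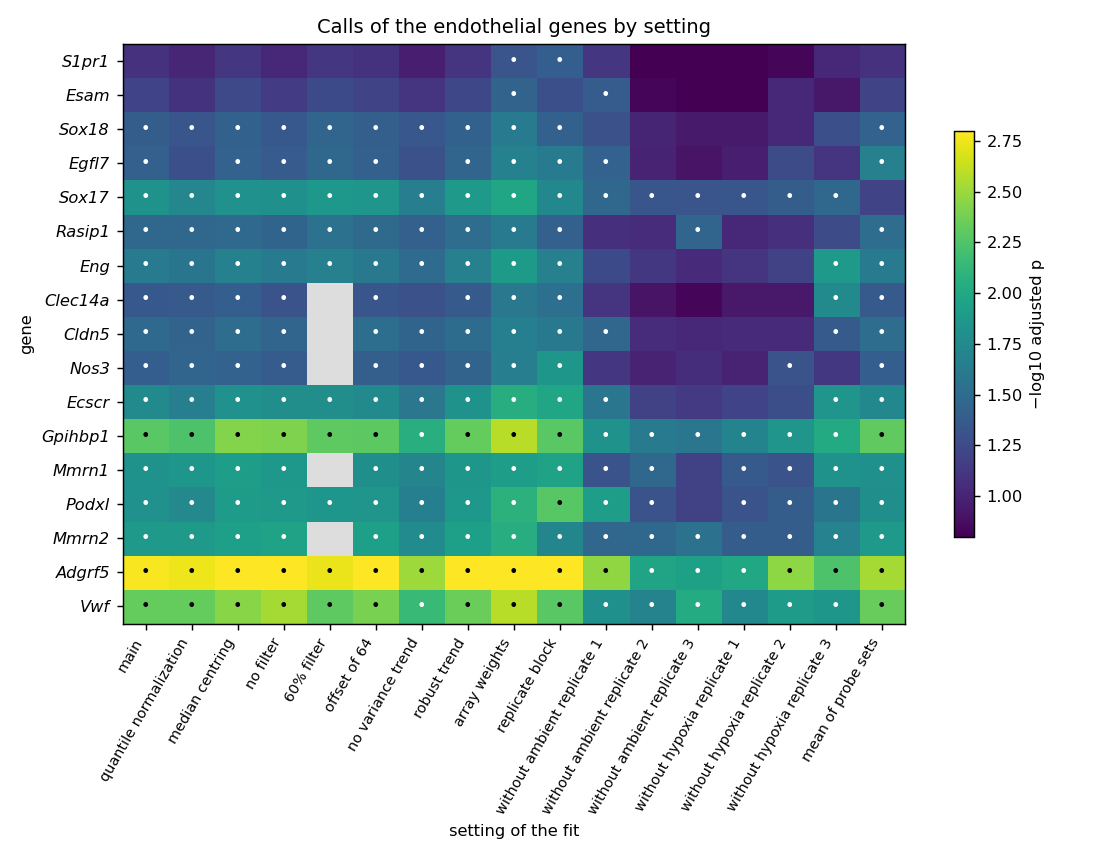
The −log10 adjusted p (colour) of the 17 genes that passed under at least 1 setting (vertical axis), under each setting of the fit (horizontal axis), with a dot where the adjusted p was under 0.05 and grey where the filter left the gene out. Vwf, Adgrf5, Gpihbp1 and Mmrn2 carry a dot in every setting that tested them. The column without ambient replicate 3 holds 6 dots, against 15 in the column of the reported fit.

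Other vascular genes were drawn from a list of 80, outside the families named at the start, of which 70 were kept. Of these, 13 rose, 1 fell and 56 did not pass (median difference 0.15), while 5.99% of all probe sets were called. The calls included 6 of 22 junction and surface genes and 3 of 6 capillary and lipid genes. Among transcription factors 1 of 16 was called, near the share of all probe sets. The 0 of 3 arterial and 0 of 4 lymphatic genes were too few to read against that share. At an unadjusted p under 0.05 limma had 1 arterial and 1 lymphatic gene. Rasgrp3, an exchange factor for Ras and Rap proteins in endothelium, rose by 1.11 (SE 0.16, adjusted p = 0.0114). The junction genes Jam2 (1.07, SE 0.17, adjusted p = 0.0159), Ptprm (0.48, SE 0.08, adjusted p = 0.0170) and Heg1 (0.37, SE 0.06, adjusted p = 0.0136) rose.

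Of the 6 other capillary and lipid genes kept, 3 rose. Cd36, a fatty acid receptor, rose by 0.81 (SE 0.15, adjusted p = 0.0256), and Lpl, the lipoprotein lipase that Gpihbp1 anchors, by 0.67 (SE 0.13, adjusted p = 0.0299). Cav2, the partner of Cav1 in caveolae, rose by 0.59 (SE 0.09, adjusted p = 0.0140). Which cells of the tissue gave these 3 signals was not tested. Selp, P-selectin, which is stored with Vwf in endothelial granules and is found in platelets, rose by 0.63 (SE 0.09, adjusted p = 0.0133). Ets2, an ETS factor of many cell types, rose by 0.38 (SE 0.08, adjusted p = 0.0323). Further calls, named after their values were seen, were rises of F11r (0.47, adjusted p = 0.0354), Emilin2 (0.46, adjusted p = 0.0466) and Icam2 (0.31, adjusted p = 0.0426) and a fall of the tight junction gene Ocln (-0.44, adjusted p = 0.0324), which epithelium shares. Of the 16 alternatives, Icam2 lost its call in 9, Emilin2 in 8, and F11r and Ocln in 6 each, with adjusted p-values of up to 0.109, 0.136, 0.110 and 0.117. The 4 brightest genes that did not pass are made by many cell types: the connexin Gja1 differed by 0.03, the cadherin partner Ctnnb1 by -0.02, the matricellular Sparc by -0.10 and the lipid kinase Sphk1 by -0.12.

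Selp and Rasgrp3 passed in all 16 alternatives. The count of 14 called became 8, 4 and 3 when ambient replicate 1, 2 or 3 was left out in turn, and 4, 8 and 12 for the hypoxia replicates.

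**Figure D4:**
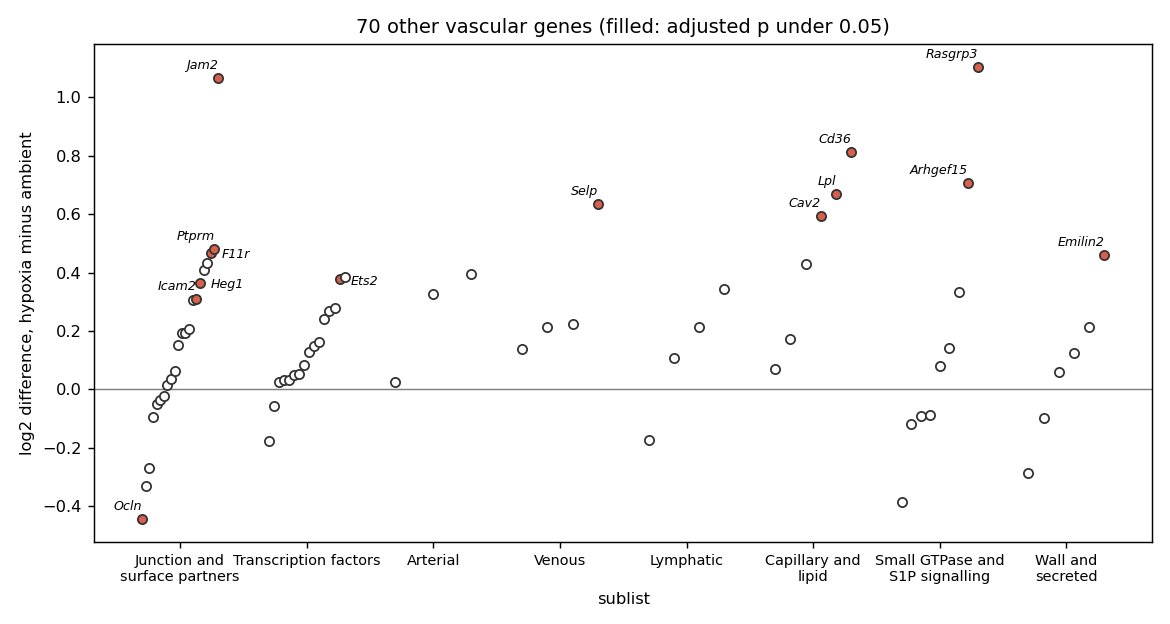
Log2 difference, hypoxia minus ambient (vertical axis), of 70 other vascular genes by sublist (horizontal axis), with filled and named points for genes called at an adjusted p under 0.05. The 13 rises reach 1.11 for Rasgrp3, and Ocln is the 1 fall. No arterial or lymphatic point is filled, but these are too few to read against the 5.99% of all probe sets called.

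Markers of other cell types moved between the groups on the same arrays. Trophoblast markers rose in 7 of 10 and fell in 1 (Cdh1), with a log2 summed signal of 11.41 to 12.69 in ambient and 13.57 to 14.04 in hypoxia. Red cell markers rose in 3 of 4, from 12.82 to 13.30 up to 14.10 to 14.43. Of the 7 decidual markers, all of positive difference, 2 rose, Hand2 and Bmp2. Prl8a2 was higher by 1.73 with no overlap between groups and did not pass (adjusted p = 0.0683). The decidual summed signal was 15.12 to 15.19 in ambient and 15.20 to 15.66 in hypoxia. Ahsp, a red cell gene that rose, and Bmp2 had ambient means of 5.61 and 5.67, under the filter's limit of 5.74. Both were kept through their hypoxia arrays. The shares over all probe sets were 4.02% called higher and 1.97% lower. Among the 8 smooth muscle and pericyte markers, limma called 0, and 4 passed before adjustment. These were Rgs5, whose groups did not overlap, Pdgfrb, Cspg4 and Des, higher by 0.41, 0.35, 0.33 and 0.20. Acta2, Myh11, Tagln and Cnn1 differed by 0.05, 0.05, 0.10 and -0.07. The groups overlapped in summed signal, which the brightest genes dominate, from 14.72 to 15.06 in ambient and from 14.74 to 15.15 in hypoxia (exact permutation p = 0.5). Natural killer cell markers fell in 2 of 6, Nkg7 and Il2rb, with summed signal from 15.39 to 15.59 down to 15.12 to 15.26. The endothelial marker list itself read 11.16 to 11.28 and 11.52 to 11.70. Over the 9 lists the exact test cannot give a p under 0.1, and the lowest value after adjustment was 0.129. The part of these cell types in the endothelial differences was not tested.

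**Figure D5:**
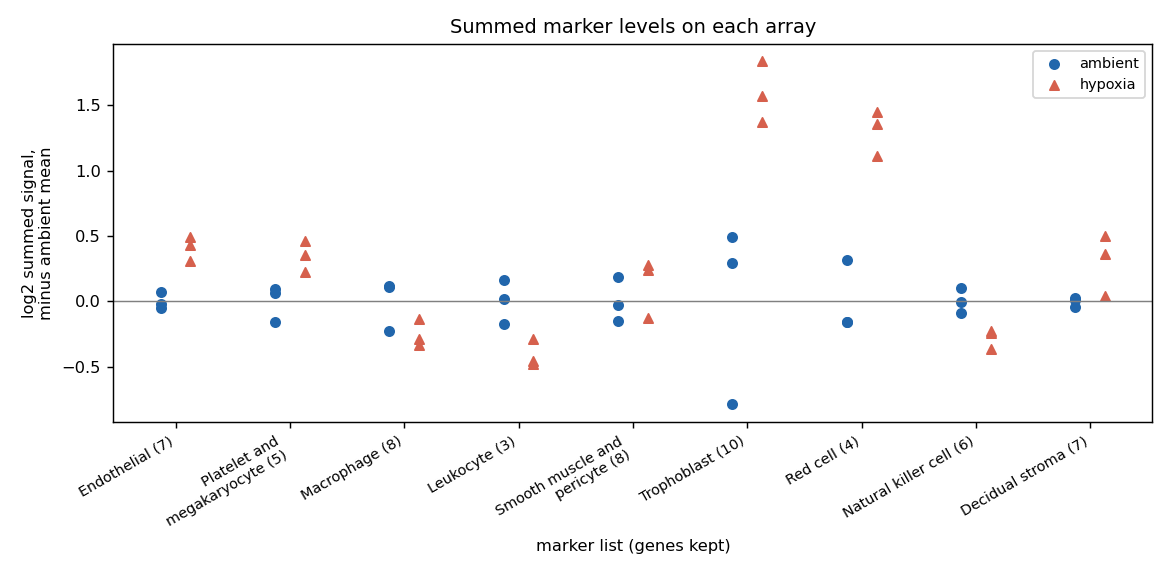
Log2 summed signal of each marker list on each array, less the mean of the ambient arrays (vertical axis), with the number of genes kept in brackets (horizontal axis), ambient as blue circles and hypoxia as red triangles. Trophoblast and red cell lists show the widest gaps, the endothelial list a smaller one, and the smooth muscle list overlaps between groups.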

How the data were processed

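Metrial gland RNA of 6 samples, 3 ambient and 3 hypoxia per the labels, was hybridised as biotin-labelled cRNA to a single-channel Affymetrix rat array. The deposited values are log2 expression per probe set and array, a scale read from their range of 2.98 to 14.9. Affymetrix Expression Console and MAS5 are listed, without a role, per the submitters' processing notes. The background correction, summary and scaling behind the values: not given in the sources used here. Scaling between arrays can hide a change shared by most genes, and the background step bears most on dim probe sets. The number of arrays, 3 per group, limits the precision.

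Of 31099 probe sets, 57 controls and the 40% with the lowest mean were left out, which kept 18625. Names came from the platform annotation, with symbols looked up by gene identifier in RefSeq. Groups were compared in R 4.3.3 with limma 3.58.1 (lmFit, eBayes with a variance trend, group as the only term, two-sided, Benjamini-Hochberg over all probe sets kept). The fit was tested on simulated data. Every member is named. Of the other vascular genes, the 10 of smallest p among those that passed, less 1 that is not reported here, and the 4 brightest that did not pass are named; of each marker list, up to 3 of the highest mean. Further markers and vascular genes were named after their values were seen. Members and lists were chosen with earlier results of these data known. Alternatives changed the normalization, filter, offset, variance model, array weights, replicate block, probe set rule and arrays used.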

Additional observations from a re-analysis of the deposited data

How the results depend on the processing

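Across the 16 alternatives the members called numbered from 10 to 17 where all arrays were used: 14 with quantile normalization, 15 with median centring, no filter, an offset of 64 or a robust trend, 10 of 21 tested with the 60% filter, 13 with no variance trend, 17 with array weights and 14 with averaged probe sets. Leaving out 1 array gave 6 to 11 members, 3 to 12 other vascular genes and 267 to 1029 of all probe sets, against 15, 14 and 1116. Quantile normalization lowered the share of all calls that were higher from 67.1% to 55.4%. Deviations of same-numbered arrays correlated at 0.0124, 0.0706 and 0.0704, and those of differently numbered arrays at -0.137 to 0.0807. With 3 arrays per group these values cannot settle whether the replicate numbers pair the samples. With the replicate block, 16 members and 1317 probe sets were called. A fit with 1 array left out has fewer samples, and the count of calls also varied with the array left out. The part of each in the lost calls was not tested. No member or other vascular gene named as called changed sign.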
